A study of Mus musculus with 9 samples.

Results

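The histone cluster 1 genes are the 56 genes of mouse chromosome 13 whose symbols start with Hist1h, taken from the 37252 annotated genes of the mm9 genome build. All but the pseudogene Hist1h2aj are protein coding. They comprise 6 H1, 15 H2A, 15 H2B, 9 H3 and 11 H4 genes with a median length of 522 bp. The peaks described here lay within 10 kb of a member, which covers 400 kb in all and is called the Hist1h territory, or in the gaps between groups of members.

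The study mapped the DNA-binding protein CTCF and the cohesin subunit Rad21 by ChIP-seq in lymphocyte precursors of C57BL/6 mice that cannot rearrange their antigen receptor genes. It deposited 5 lists of confident MACS peaks, 1 for each antibody and cell population. Pre-B cells came from bone marrow of RAG-/- mice with an IgM (µ) transgene that is already rearranged, and both CTCF and Rad21 were mapped in them against 1 shared input. The second CTCF list came from RAG1-/- pro-B cells after 7 days of culture with IL7, a cytokine on which B cell progenitors depend. Bone marrow donors were 6 to 14 weeks old and of both sexes. DN (double-negative) thymocytes came from Rag1-/- mice, and DP (double-positive) thymocytes from Rag1-/- mice with a rearranged TCRb transgene, both 4 to 8 weeks old. Every group thus lacked RAG, and the pre-B and DP populations arose through a transgene rather than through their own rearrangement. The peak lists measure no expression, so the labelled cell types were not checked against marker genes.

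Replication-dependent histone genes are short genes without introns that supply the histones packaged onto newly copied DNA. H2A, H2B, H3 and H4 form the nucleosome core, and H1 binds the linker DNA between nucleosomes. Many H2A and H2B genes face away from each other and share the promoter between them. CTCF binds a defined sequence motif, and the cohesin ring, which holds DNA loops, often accumulates where CTCF is bound.

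The CTCF lists were 42250 peaks long for pre-B cells and 71080 for pro-B cells cultured with IL7. The Rad21 lists were 30488 (pre-B), 9701 (DN) and 36743 (DP) peaks long. The number of reads behind them is unknown, so a peak missing from a shorter list is not evidence of lost binding. With 1 library for each condition no test between conditions was possible. Peak strength is given as a rank, the percentage of the peaks in the same list that had a lower score, and ranks of different lists are not on a common scale. Shares carry exact Clopper-Pearson intervals at 95%, which cover counting error only. For a count of 0 the limit given is 3 counts of the total.

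The members formed 4 groups wherever 100 kb or more without a member separated them, plus the lone gene Hist1h2al. Group 1 held 19 genes from Hist1h2bl to Hist1h2br over 122 kb (chr13:21807632-21929399). Group 2 held 5 genes from Hist1h2ah to Hist1h2bj over 8.56 kb (chr13:22126982-22135545). Group 3 was the largest, with 29 genes from Hist1h4h to Hist1h1a over 233 kb (chr13:23622919-23856283). Group 4 was the divergent pair Hist1h2ba and Hist1h2aa (chr13:24025637-24026720). Groups 1 to 4 spanned 2219 kb, and Hist1h2al (chr13:51298057-51298434) lay apart. The gap before it measured 27251 kb without the 10 kb flanks on its sides, and it is not counted among the gaps.

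Sites at group borders and inside groups are shown first, each as the best match to the study's de novo CTCF consensus inside its CTCF peak, with 14 reference bases on either side. Capitals mark the 12 matched bases, and every sequence is read on the strand of the match. Distances run from the nearest edge of the site to the gene. The first pair are the mirror-image sites of group 1, inside the group and at its right border, and their 40 bases are the same.

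Inside group 1, 2687 bp from Hist1h2bq, mm9 chr13:21895129-21895168, plus strand: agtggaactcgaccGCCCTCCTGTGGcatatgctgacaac
Right border of group 1, 2688 bp from Hist1h2br, mm9 chr13:21932512-21932551, minus strand: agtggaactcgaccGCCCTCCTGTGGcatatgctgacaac

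The next sequences belong to the sites at the left borders of groups 2 and 3, to the farther site at the right border of group 2, and to the 3 sites inside group 3 that were called in all 5 libraries.

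Left border of group 2, 5398 bp from Hist1h2ah, mm9 chr13:22120698-22120737, minus strand: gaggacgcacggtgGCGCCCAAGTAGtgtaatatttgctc
Left border of group 2, 4092 bp from Hist1h2ah, mm9 chr13:22122487-22122526, plus strand: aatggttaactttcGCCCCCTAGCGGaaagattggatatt
Right border of group 2, 6993 bp from Hist1h2bj, mm9 chr13:22142977-22143016, plus strand: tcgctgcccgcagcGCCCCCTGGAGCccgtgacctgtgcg
Left border of group 3, 5823 bp from Hist1h4h, mm9 chr13:23616671-23616710, plus strand: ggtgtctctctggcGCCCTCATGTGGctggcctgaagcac
Inside group 3, within the annotated span of Hist1h2be, mm9 chr13:23690030-23690069, plus strand: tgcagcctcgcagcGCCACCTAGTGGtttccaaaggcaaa
Inside group 3, 2339 bp from Hist1h4c, mm9 chr13:23793235-23793274, minus strand: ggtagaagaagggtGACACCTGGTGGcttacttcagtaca
Inside group 3, 5683 bp from Hist1h1c, mm9 chr13:23824523-23824562, plus strand: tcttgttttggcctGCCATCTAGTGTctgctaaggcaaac

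The last 2 sites lay beside H4 genes, and their pre-B CTCF peaks were the highest ranked to reach a Hist1h promoter.

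Upstream of Hist1h4j, mm9 chr13:21826136-21826175, plus strand: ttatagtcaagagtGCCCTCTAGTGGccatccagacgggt
Downstream of Hist1h4c, mm9 chr13:23789418-23789457, plus strand: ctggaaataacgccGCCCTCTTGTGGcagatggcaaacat

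Among these 11 sequences, the second site left of group 2, the site within Hist1h2be and the site upstream of Hist1h4j had 1 mismatch to the consensus. The sites near Hist1h4c and the site right of group 2 had 2 mismatches each and the other 5 had 3. The higher ranked peak left of group 2, which ranked at 94.9 in the pre-B CTCF list, was thus among those with the poorer matches.

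CTCF and Rad21 peaks were several times denser in the Hist1h territory than in the genome. The territory held 27 CTCF peaks in the pre-B list and 50 in the IL7 pro-B list, or 67.4 and 125 peaks per Mb, against 16.0 and 26.9 per Mb over chromosomes 1 to 19 and X. Rad21 gave 28 peaks in pre-B cells (69.9 per Mb against 11.6), 7 in DN thymocytes (17.5 against 3.68) and 38 in DP thymocytes (94.9 against 13.9). The territory was also denser than sequence within 10 kb of any protein-coding gene, which held 24.9, 40.8, 17.9, 5.45 and 21.9 peaks per Mb in the same order. Histone genes are short, so a territory of this kind holds a larger share of promoter and border sequence than the surroundings of longer genes do, and the part of this in the densities was not tested. The map of peaks along the groups shows where these peaks lay.

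**Figure D1:**
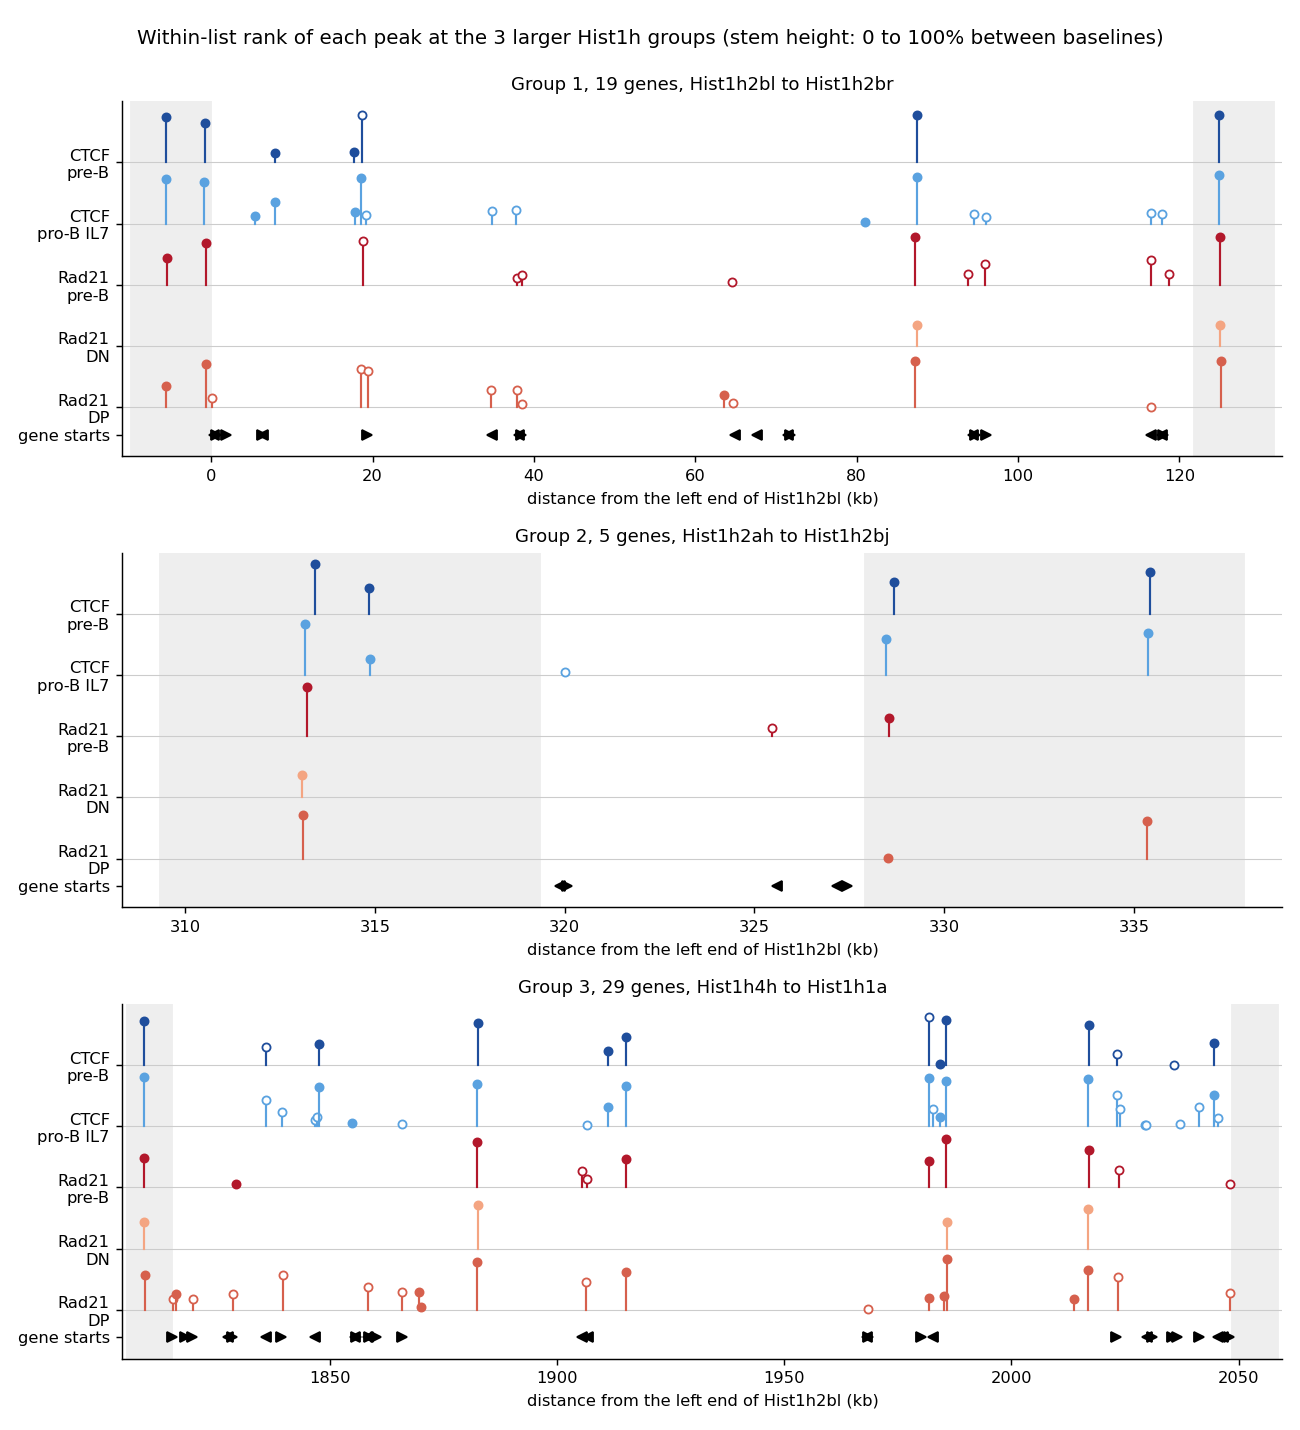
Peaks at groups 1, 2 and 3 along the distance in kb from the left end of Hist1h2bl, with 1 baseline for each library and stems as high as the within-list rank (0 to 100% between baselines). Open circles are peaks at Hist1h promoters, filled circles all others, black arrowheads the gene starts and grey bands the 10 kb borders. The tall filled stems stand at borders and at a few places inside groups 1 and 3, while most open circles are low.

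The first question was which histone promoters carried a peak, with a promoter taken as 500 bp on either side of the annotated start. CTCF in pre-B cells reached 6 of the 56 promoters (10.7%, interval 4.03 to 21.9%), and the 18.1% of all 22350 protein-coding promoters lay inside that interval. With promoters of 1000 bp on either side it reached 11 (19.6%, against 22.0%). In IL7-cultured pro-B cells CTCF reached 24 (42.9%, 29.7 to 56.8%), against 27.8% of all promoters. Pre-B Rad21 reached 16 promoters (28.6%, 17.3 to 42.2%, against 14.4%) and DP Rad21 reached 20 (35.7%, 23.4 to 49.6%, against 27.0%). In DN thymocytes Rad21 reached 0 of 56, which allows a share of up to 5.36% (3 of 56), and the share of all promoters was 2.18%.

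For the other lists with calls, these shares rested largely on peaks of low score, while pre-B CTCF kept 5 of its 6 promoters at scores of at least 100 (8.93%, against 15.0%). With peaks scored at least 100, Hist1h promoters were called at 16.1% for IL7 pro-B CTCF against 20.5% of all promoters, at 12.5% for Rad21 in pre-B cells against 8.75%, and at 17.9% for Rad21 in DP thymocytes against 17.7%. With every list of an antibody shortened to the length of the shortest, they were called at 3.57%, 1.79% and 1.79%, against 15.1%, 2.65% and 5.23% of all promoters. In IL7-cultured pro-B cells no excess over all promoters was therefore left under either limit. For pre-B Rad21 the excess was lost only with the shortened lists, where 1 of the 56 promoters was left, too few to show a shortfall. For DP Rad21 the share of all promoters lay inside the interval with all peaks, and no excess was left at scores of at least 100.

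**Figure D2:**
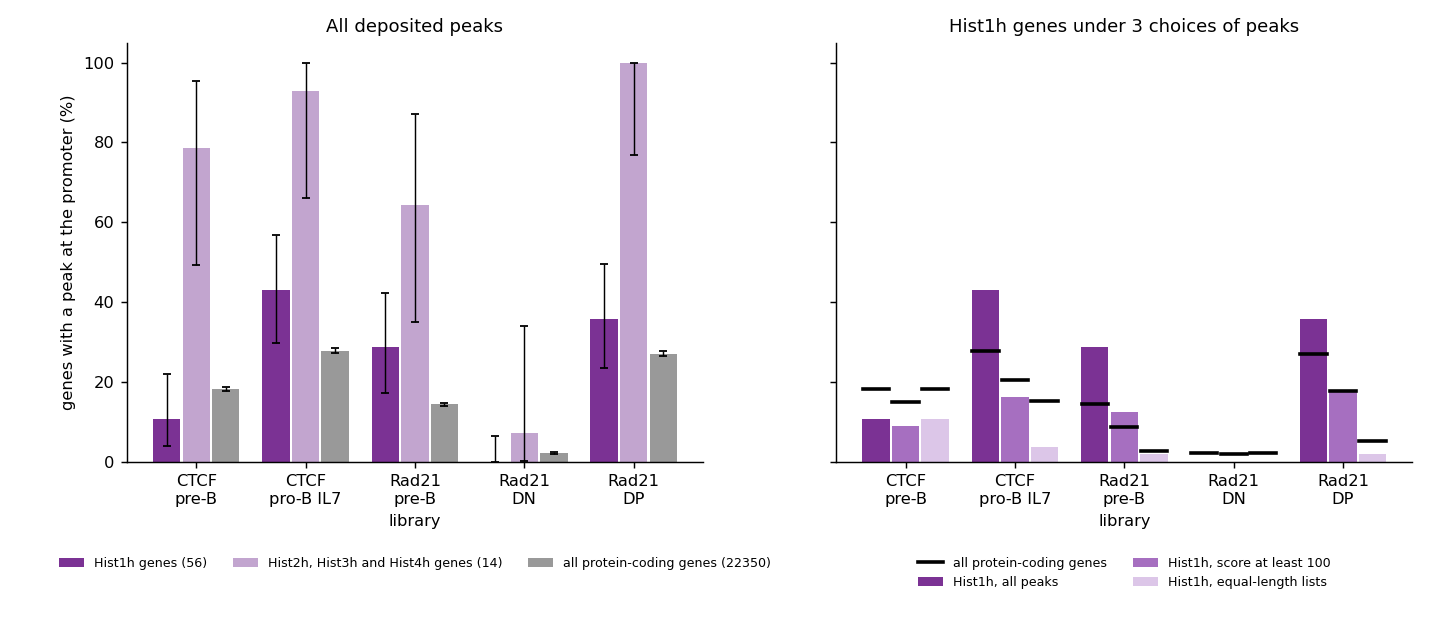
Left, share of genes (%) with a peak at the promoter in each library for the Hist1h genes, the histone genes of other clusters and all protein-coding genes, with exact 95% intervals as error bars. Right, the Hist1h share with all peaks, with peaks scored at least 100 and with equal-length lists, where black lines give all protein-coding genes under the same choice. The Hist1h share in IL7-cultured pro-B cells falls from 42.9% to 16.1% and 3.57% and ends below the black line.

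Counted gene by gene, 38 of the 56 promoters had a peak in at least 1 library, 12 of them in 2 libraries, 5 in 3 and 2 in 4. The share called in any library was 67.9%, against 41.1% of all protein-coding promoters, and most of the difference was in promoters called in 1 library (33.9% against 16.3%) or 2 (21.4% against 10.7%). Calls in 3 libraries stood at 8.93% against 6.51%. Calls in 4 libraries were no more frequent than over all promoters (3.57% against 5.82%). None was called in all 5, where 1.79% of all promoters were. The 2 promoters called in 4 libraries were those of Hist1h4j, an H4 gene of group 1, and Hist1h1c, an H1 gene of group 3. The grid of promoter ranks gives every member.

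**Figure D3:**
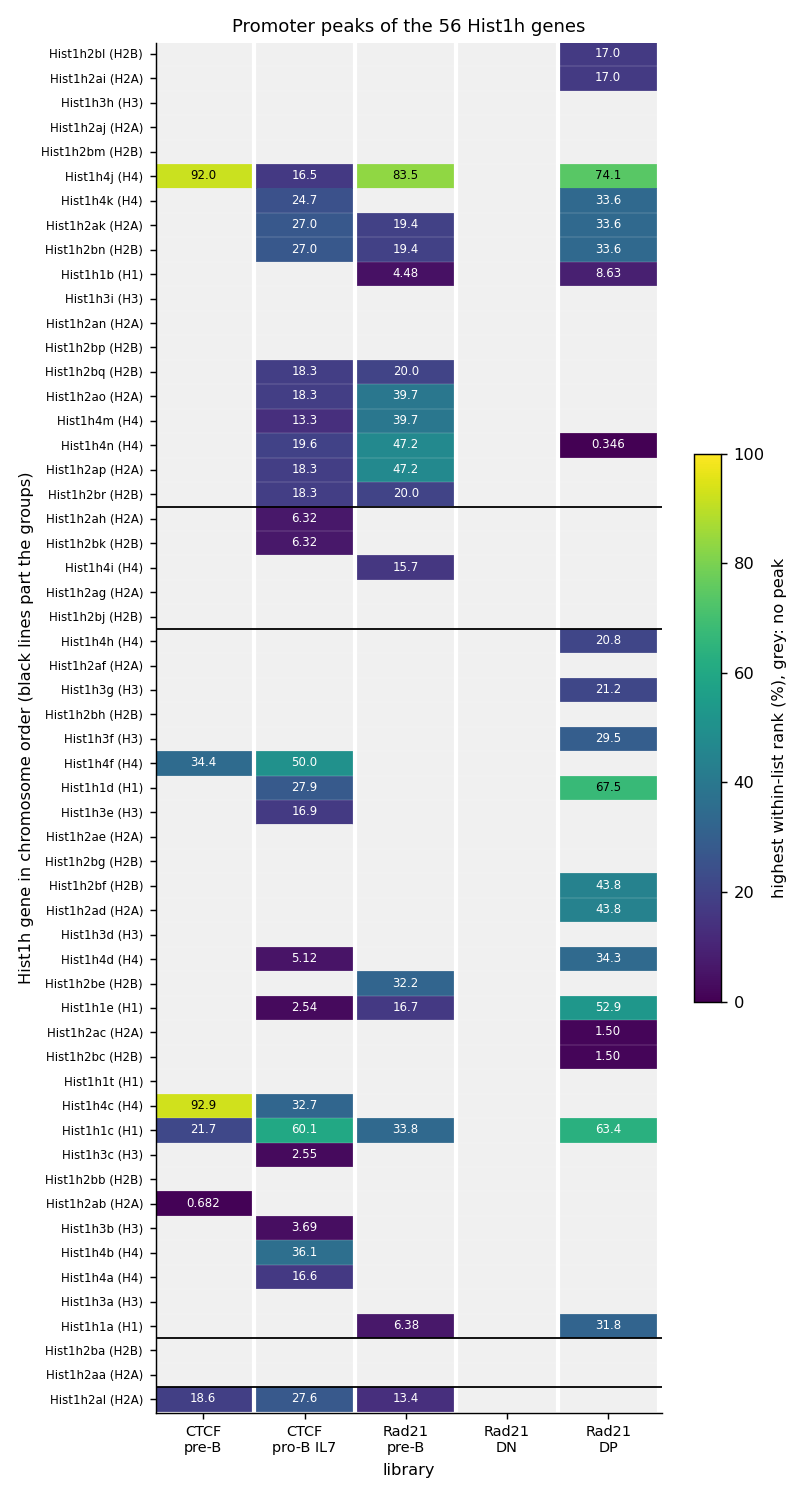
Highest within-list rank (%) of a peak at each of the 56 promoters (rows, in chromosome order, with the histone type) in each of the 5 libraries (columns), from dark (weak) to yellow (strong), with grey where no peak was called. Hist1h4j and Hist1h1c are filled in 4 columns, and the column for Rad21 in DN thymocytes is empty.

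By group, pre-B Rad21 was called at 10 of the 19 promoters of group 1 and at 4 of the 29 of group 3, while DP Rad21 was called at 8 and 12. CTCF in the IL7 list was called at 10 in group 1, 2 of the 5 in group 2 and 11 in group 3. All protein-coding promoters were called at 14.4% for pre-B Rad21, 27.0% for DP Rad21 and 27.8% in the IL7 list. The 6 mirrored genes of the inverted repeat described further on are all among the 10 of group 1, for pre-B Rad21 and for the IL7 list alike. The lone Hist1h2al, an H2A gene far from the groups, had pre-B CTCF at a rank of 18.6, CTCF in the IL7 list at 27.6 and pre-B Rad21 at 13.4. DP thymocytes had 12 promoters with Rad21 that pre-B cells lacked, pre-B cells had 8 that DP thymocytes lacked, and 8 were called in both. As shares these were 21.4%, 14.3% and 14.3%, against 16.2%, 3.56% and 10.8% of all protein-coding promoters, from lists of unequal length.

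The linker histone genes had the highest share of Rad21 in pre-B (66.7%) and DP cells (83.3%), against 14.4% and 27.0% of all promoters. They also had the least repeated sequence, with a median of 0.515% of their promoter in stretches of 31 bases found at more than 3 places in the genome, against 48.6% for H2A, 43.3% for H2B, 31.5% for H3 and 20% for H4 promoters. Reads that matched more than 3 places were not kept, and the part of this in the differences between histone types was not tested. In DP thymocytes 5 of the 6 H1 promoters were called, with ranks of 67.5 at Hist1h1d, 63.4 at Hist1h1c, 52.9 at Hist1h1e, 31.8 at Hist1h1a and 8.63 at Hist1h1b. Pre-B Rad21 was called at 4 of these, with ranks of 33.8 at Hist1h1c, 16.7 at Hist1h1e, 6.38 at Hist1h1a and 4.48 at Hist1h1b. Scores under 100 made up 26.1% of the pre-B and 32.6% of the DP list. The peaks at Hist1h1a and Hist1h1b thus scored under 100 in both, and the pre-B peak at Hist1h1e did as well. Pre-B CTCF reached Hist1h1c alone, at a rank of 21.7. In IL7-cultured pro-B cells CTCF ranked at 60.1 at Hist1h1c, at 27.9 at Hist1h1d and at 2.54 at Hist1h1e. The sixth H1 gene, Hist1h1t, encodes the testis form and had no promoter peak in any library.

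Hist1h1c is the H1 promoter with a peak in 4 libraries, and the 250 bases before its annotated start are given with the CCAAT box, an element of many histone promoters, in capitals.

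Hist1h1c, mm9 chr13:23830426-23830675, plus strand: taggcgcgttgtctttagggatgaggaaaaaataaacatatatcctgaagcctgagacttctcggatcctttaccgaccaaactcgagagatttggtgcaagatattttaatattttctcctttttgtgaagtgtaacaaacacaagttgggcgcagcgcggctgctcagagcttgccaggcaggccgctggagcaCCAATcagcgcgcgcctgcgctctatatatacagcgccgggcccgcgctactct

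The H4 genes had the highest share of CTCF in the IL7 list. IL7-cultured pro-B cells had a CTCF peak at 9 of the 11 H4 promoters, with ranks from 5.12 at Hist1h4d to 50 at Hist1h4f. The exceptions were Hist1h4h and Hist1h4i, and 5 of the 9 had peaks scored under 100 only. Pre-B CTCF was called at 3 of the 11. It ranked at 92.9 at Hist1h4c, 92.0 at Hist1h4j and 34.4 at Hist1h4f. The peaks at Hist1h4c and Hist1h4j reached the promoter window from outside, with midpoints 768 bp downstream and 643 bp upstream of the start, so both fall away when the midpoint must lie inside. At Hist1h4j the peak coincided with pre-B Rad21 (rank 83.5) and DP Rad21 (74.1). The site downstream of Hist1h4c had CTCF at 92.9 in both lists, pre-B Rad21 at 50.1 and DP Rad21 at 22.4, of which only the pre-B CTCF peak reached the promoter window. Pre-B Rad21 was called at 4 H4 promoters and DP Rad21 at 5. The H4 shares were 27.3% for pre-B CTCF, 81.8% in the IL7 list, 36.4% for pre-B Rad21 and 45.5% for DP Rad21. All protein-coding promoters gave 18.1%, 27.8%, 14.4% and 27.0% in that order.

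The H3 genes were called at promoters in 2 of the lists. Pre-B CTCF and pre-B Rad21 reached none of the 9, where 18.1% and 14.4% of all promoters were called. CTCF in IL7-cultured pro-B cells was called at Hist1h3e (rank 16.9), Hist1h3b (3.69) and Hist1h3c (2.55), and DP Rad21 at Hist1h3f (29.5) and Hist1h3g (21.2). As shares of the 9 these were 33.3% and 22.2%, against 27.8% and 27.0% of all promoters. Hist1h3a, Hist1h3d, Hist1h3h and Hist1h3i had no promoter peak in any library.

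Of the 12 head-to-head pairs whose starts lay within 1000 bp, 11 joined an H2A with an H2B gene and the other joined Hist1h2bh with Hist1h3f. At least 1 library had a peak at a promoter of 8 of the 12 (66.7%), against 74.8% of the 808 such pairs among all protein-coding genes. Pre-B CTCF reached none of them, CTCF in IL7-cultured pro-B cells reached 4, while pre-B Rad21 reached 3 and DP Rad21 reached 5. The shares of all such pairs were 30.7% for pre-B CTCF, 48.9% for the IL7 list, 27.6% for pre-B Rad21 and 52.0% for DP Rad21, each above the share of the Hist1h pairs. DN Rad21 reached 0 of the 12 and 1.24% of all such pairs. The pair with most calls was Hist1h2ak and Hist1h2bn, with ranks of 27.0 for IL7-cultured pro-B CTCF, 19.4 for pre-B Rad21 and 33.6 for DP Rad21. At Hist1h2bf and Hist1h2ad, DP Rad21 ranked at 43.8 and nothing else was called. Pair members are not independent, since 1 peak in the shared promoter counts for both genes.

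Short motifs were searched on both strands from 250 bp before to 50 bp after each start, namely the CCAAT box, a TATA box spelled TATAAA, and a part of the octamer element of H2B promoters spelled ATGCAAA. The CCAAT box was found at 82.1% of Hist1h promoters (interval 69.6 to 91.1%) and 37.9% of all protein-coding promoters, TATAAA at 55.4% (41.5 to 68.7%) against 13.4%, and ATGCAAA at 23.2% (13.0 to 36.4%) against 4.40%. CCAAT was found at 15 of 15 H2B, 6 of 6 H1, 14 of 15 H2A and 8 of 9 H3 promoters but at only 3 of the 11 H4 promoters. The stretches between the starts of the 12 pairs all held CCAAT on one of the strands. Of these stretches 5 held TATAAA and 4 held ATGCAAA. In the stretches printed next, capitals mark these motifs, and none of the matches overlapped.

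Between Hist1h2ah and Hist1h2bk, mm9 chr13:22127513-22127689, plus strand: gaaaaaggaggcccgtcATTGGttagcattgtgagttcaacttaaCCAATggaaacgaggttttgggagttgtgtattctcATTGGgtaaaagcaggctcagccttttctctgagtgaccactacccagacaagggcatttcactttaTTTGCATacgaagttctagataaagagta
Between Hist1h2bq and Hist1h2ao, mm9 chr13:21902069-21902235, plus strand: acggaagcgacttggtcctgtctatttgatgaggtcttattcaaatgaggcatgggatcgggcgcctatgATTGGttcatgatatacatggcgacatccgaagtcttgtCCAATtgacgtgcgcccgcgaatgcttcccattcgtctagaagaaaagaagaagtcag

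The first stretch is shown because it holds 3 CCAAT and 1 ATGCAAA match, and the CTCF peak over it in IL7-cultured pro-B cells ranked at 6.32. The second is the promoter of a duplicated pair, since the 167 bases between Hist1h2ap and Hist1h2br are the same when read on the other strand. In IL7-cultured pro-B cells a CTCF peak ranked at 18.3 over either copy.

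Promoter peaks ranked low within their lists, below the other peaks of the territory. In pre-B cells the 6 CTCF promoter peaks had a median rank of 28.0 and the 21 other CTCF peaks of the territory 60.3. In IL7-cultured pro-B cells the medians were 18.3 for 23 promoter peaks and 74.6 for 27 others. Pre-B Rad21 had medians of 19.7 for 14 and 64.4 for 14, and DP Rad21 of 32.7 for 18 and 54.2 for 20. The ranges overlapped in each library. The medians of all promoter peaks of the same lists were 47.2, 41.6, 34.8 and 44.0, and those of all other peaks 50.2, 50.7, 51.8 and 51.3. The other DP Rad21 peaks of the territory were thus close to the rest of their list, with 10 of 20 at a rank of 50 or above. Of the 23 promoter peaks in IL7-cultured pro-B cells 2 ranked at 50 or above, at Hist1h1c and Hist1h4f, whereas 17 of the 27 others did.

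**Figure D4:**
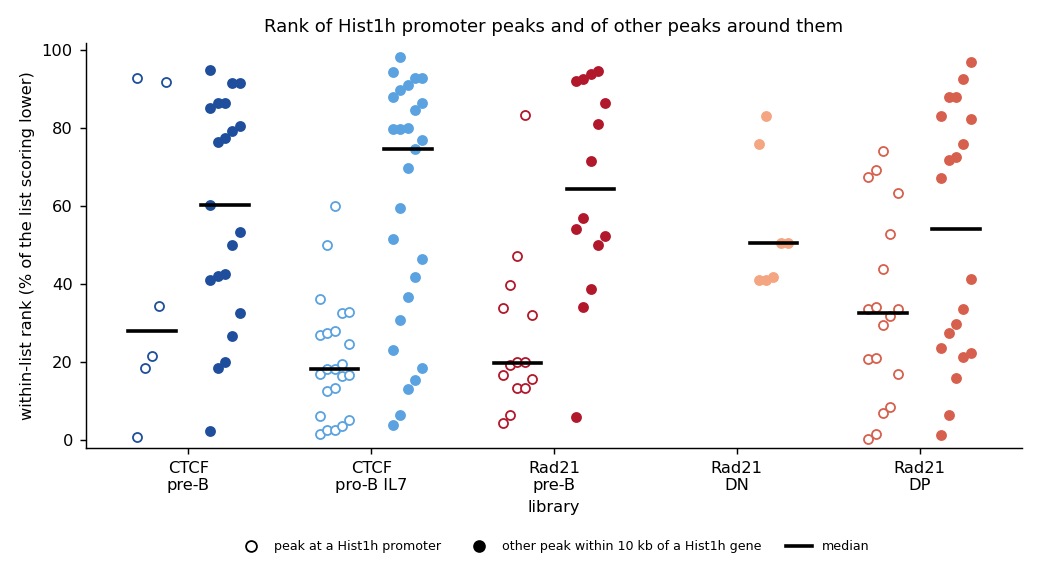
Within-list rank (%) of each peak in the Hist1h territory by library, with open circles for peaks at Hist1h promoters, filled circles for the other peaks and black bars for the medians. The promoter medians of 28.0, 18.3, 19.7 and 32.7 lie below the medians of the other peaks in each library that had promoter peaks, and DN thymocytes had none.

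In pre-B cells most Rad21 peaks at histone promoters overlapped no peak of the pre-B CTCF list. Of the 14 pre-B Rad21 peaks at Hist1h promoters 3 overlapped a pre-B CTCF peak (21.4%, interval 4.66 to 50.8%), whereas 13 of the 14 elsewhere in the territory did (92.9%, 66.1 to 99.8%). Over all protein-coding promoters the share was 71.3%, and it was 89.9% away from them. The 3 overlaps were at Hist1h4j, Hist1h1c and Hist1h2al. Among the 11 others, a peak at each of Hist1h2ak, Hist1h4m, Hist1h4n and Hist1h1e overlapped a CTCF peak of the IL7 list. In the whole territory 57.1% of pre-B Rad21 peaks overlapped CTCF (37.2 to 75.5%), against 88.1% in the genome. In the other direction 59.3% of the 27 pre-B CTCF peaks overlapped Rad21, against 63.5% in the genome.

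The split between promoters and elsewhere followed peak strength as well as place. Pre-B Rad21 peaks of the territory that overlapped CTCF had a median rank of 64.4 and those that did not of 18.0. In the genome these medians were 55.6 and 15.7. With peaks scored at least 100, 5 Rad21 peaks at Hist1h promoters were left, and 2 of them overlapped CTCF (40.0%), against 13 of 13 elsewhere. Strength and place were not separated further. In DP thymocytes CTCF was not mapped in the lists used here. Of their Rad21 peaks, 9 of 18 at Hist1h promoters and 15 of 20 others in the territory overlapped CTCF of either B-lineage library. Over the whole DP list the shares were 60.0% at all protein-coding promoters and 70.9% away from them. Each lay inside the interval of the matching Hist1h share, so these DP counts show no departure from the whole list.

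Peaks stood outside most group ends in every list but DN Rad21. Within the 10 kb outside the 8 ends of groups 1 to 4, pre-B CTCF, IL7-cultured pro-B CTCF and pre-B Rad21 each had a peak at 6, DP Rad21 at 5 and DN Rad21 at 3. Windows of that size outside the ends of all protein-coding genes held a peak in 35.9%, 47.0%, 28.4%, 33.7% and 9.93% of cases, in the same order. With 8 borders the intervals were wide, from 34.9 to 96.8% for the lists with 6 of 8, from 24.5 to 91.5% for DP Rad21 and from 8.52 to 75.5% for DN Rad21. The share of all windows lay inside the interval in every list but pre-B Rad21.

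The left border of group 2 had the highest ranks of any border in both CTCF lists and for pre-B Rad21. A site 5398 bp from Hist1h2ah, called in all 5 libraries, ranked at 94.9 for pre-B CTCF, 98.3 for IL7-cultured pro-B CTCF, 94.8 for pre-B Rad21, 83.1 for DP Rad21 and 42.0 for DN Rad21. The right border of group 1 was called in all 5 as well, at 91.7, 92.9, 92.6, 88.0 and 41.2 in that order. The left border of group 3, 5823 bp from Hist1h4h, ranked at 85.1, 94.5, 57.1, 67.2 and 50.6. These are the borders at which DN thymocytes had Rad21. For DP Rad21 the right border of group 1 ranked highest, and for DN Rad21 the left border of group 3.

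The left end of group 1 had a pair of sites before Hist1h2bl. The outer, 5240 bp away, ranked at 86.6 for pre-B CTCF, 84.8 for IL7-cultured pro-B CTCF, 52.4 for pre-B Rad21 and 41.2 for DP Rad21. The inner, 273 bp away, ranked at 76.6, 79.8, 81.2 and 82.4. On the right of group 2, beyond Hist1h2bj, CTCF ranked at 60.3 and 69.9 at 232 bp and at 79.3 and 79.9 at 6993 bp in the 2 CTCF lists. Rad21 at the nearer site ranked at 34.1 (pre-B) and 1.26 (DP), and at the farther it was called in DP thymocytes alone, at 72.8. DN thymocytes had no peak at either of these borders, and the nearest DN peak to the left of group 1 was 480966 bp away.

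Some ends had no peak. Beyond Hist1h1a, the last gene of group 3, the 10 kb were empty in all 5 lists, and the first site in each was about the same one near Trim38, 28080 bp away in the pre-B CTCF list. The left side of the testis pair Hist1h2ba and Hist1h2aa was empty too. Its right side had 1 site of CTCF and pre-B Rad21, 7954 bp from Hist1h2aa, with ranks of 32.6, 51.7 and 38.9. Neither promoter of this pair had a peak in any list. Together with Hist1h1t, the testis variants among the members were thus without a promoter peak, a feature looked at after the values had been seen, and 15 other members had none either.

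Inside the groups, 4 further sites were called in all 5 libraries. Within group 1, the site 2687 bp from Hist1h2bq had ranks from 41.2 in DN thymocytes to 92.0 for pre-B Rad21. In group 3 the site within the annotated span of Hist1h2be ranked at 80.5, 80.2, 86.5, 83.2 and 92.7 for pre-B CTCF, IL7-cultured pro-B CTCF and Rad21 in pre-B, DN and DP cells. The site 2339 bp from Hist1h4c ranked at 86.6, 86.4, 93.9, 50.5 and 97.0 and gave the highest DP Rad21 rank of the territory. It lay closer to a gene that is no histone gene, at 200 bp. The site 5683 bp from Hist1h1c ranked at 77.6, 91.1, 71.7, 76.0 and 76.0. Hist1h2be is annotated over 37383 bp, with a start 35168 bp from its coding start, and was the one member whose starts differed by over 1000 bp.

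Merging the 5 lists gave 65 sites in the territory, of which 7 (10.8%) were called in all 5 and 28 (43.1%) in 1. In the genome these shares were 10.3% and 45.2% of 83461 sites. None of the 36 sites at Hist1h promoters was called in all 5 and 19 were called in 1, whereas 7 of the 29 away from promoters were called in all 5 and 9 in 1. Counted as promoters rather than sites, 1.79% of all protein-coding promoters were called in all 5. The 7 include both mirror-image sites of group 1.

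Sharing of Rad21 between cell types in the whole territory was near that of the genome. Of 42 Rad21 sites in the territory 7 were called in pre-B, DN and DP cells (16.7%, interval 6.97 to 31.4%, against 18.7% of the genome), 14 in pre-B and DP cells (33.3%, against 25.1%), 6 in pre-B cells only (14.3%, against 20.6%) and 15 in DP thymocytes only (35.7%, against 33.6%). No site was called in DN thymocytes alone. At Hist1h promoters 0 of 22 sites were called in all 3, which allows a share of up to 13.6% (3 of 22), and 9 were shared by pre-B and DP cells. Rad21 sites at all protein-coding promoters were called in all 3 at 7.76%, in pre-B and DP cells at 27.7%, in pre-B cells only at 10.3% and in DP thymocytes only at 53.3%, where the Hist1h promoter sites gave 0, 9, 5 and 8 of 22. Sites away from all promoters were called in all 3 at 20.5%. Away from Hist1h promoters 7 of 20 were called in all 3 (35.0%, 15.4 to 59.2%). With the lists cut to 9701 peaks each, 6 of the 9 Rad21 sites left were called in all 3 (66.7%, against 33.2% in the genome) and none in DP thymocytes only.

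CTCF in the 2 B-lineage libraries was shared as in the genome. Of the 27 pre-B peaks 26 overlapped an IL7-cultured pro-B peak (96.3%, interval 81.0 to 99.9%, against 96.0%). The exception was a peak at Hist1h2ab with a rank of 0.682. Of the 50 IL7-cultured pro-B peaks 27 overlapped a pre-B peak (54.0%, 39.3 to 68.2%, against 58.6%), and these had a median rank of 74.6 where the 23 others had 15.5. At promoters 5 genes had CTCF in both lists, 19 in IL7-cultured pro-B cells only and Hist1h2ab in pre-B cells only. Over all protein-coding promoters the split was 15.9%, 11.9% and 2.19%, against 8.93%, 33.9% and 1.79% here. The longer IL7 list reached lower, and among its top 42250 peaks 21 lay in the territory and 2 promoters were called.

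A match to the CTCF consensus with at most 2 mismatches was found in 8 of the 27 pre-B CTCF peaks (29.6%, interval 13.8 to 50.2%), against 48.3% in the genome and 3.70% of sequence of equal length 2000 bp beyond the members' peaks. In IL7-cultured pro-B cells the share was 16.0% of 50 (7.17 to 29.1%), against 39.0%. The 23 promoter peaks of that library held 0 matches, which allows a share of up to 13.0% (3 of 23), and the 27 others held 8. In pre-B cells 2 of 6 promoter peaks (33.3%) and 6 of 21 others (28.6%) held a match. The 2 were the peaks at Hist1h4j and Hist1h4c, which reached the promoter window from outside. The narrower IL7 peaks with a match at these 2 sites missed the window and were counted among the others, so the libraries are not comparable in this split. Of the 8 matches in pre-B cells 6 lay on the plus strand and 2 on the minus strand. The share moved with the mismatches allowed, from 11.1% at 1 to 85.2% at 3 in pre-B cells, where the genome gave 16.1% and 91.2%.

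The gaps between the groups differed from each other. Outside the 10 kb flanks, gaps 1 to 3 measured 178, 1467 and 149 kb. Together they held 14 peaks of pre-B CTCF, 27 of IL7 pro-B CTCF and 11, 5 and 14 of pre-B, DN and DP Rad21. This gave 7.80, 15.0, 6.13, 2.79 and 7.80 peaks per Mb, below the genome in each, with gap 2 the one gap below the genome in every list. Gap 2 gave 2.73 and 10.2 CTCF peaks per Mb in the pre-B and IL7 lists, and 2.04, 0.681 and 6.13 Rad21 peaks per Mb in pre-B, DN and DP cells. Gaps 1 and 3 were above the genome in 4 and 5 of the 5 lists. They gave 33.8 and 26.8 pre-B CTCF peaks per Mb, 33.8 and 40.2 in the IL7 list, 16.9 and 33.5 for pre-B Rad21, 11.3 and 13.4 for DN Rad21, and 11.3 and 20.1 for DP Rad21, from 2 to 6 peaks each. Gap 2 holds 37 vomeronasal receptor genes, a family of pheromone receptors expressed in sensory neurons. Between its first and last vomeronasal gene lay 1162 kb with 0 pre-B CTCF, 0 pre-B Rad21 and 0 DN Rad21 peaks, 1 DP Rad21 peak and 4 IL7-cultured pro-B CTCF peaks that ranked at no more than 38.7. None of the 37 promoters was called in any list, which allows a share of up to 8.11% (3 of 37) in each. The share of all promoters lay within that limit for DN Rad21 (2.18%) and above it in the other lists. Repeated sequence was not counted in that stretch.

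**Figure D5:**
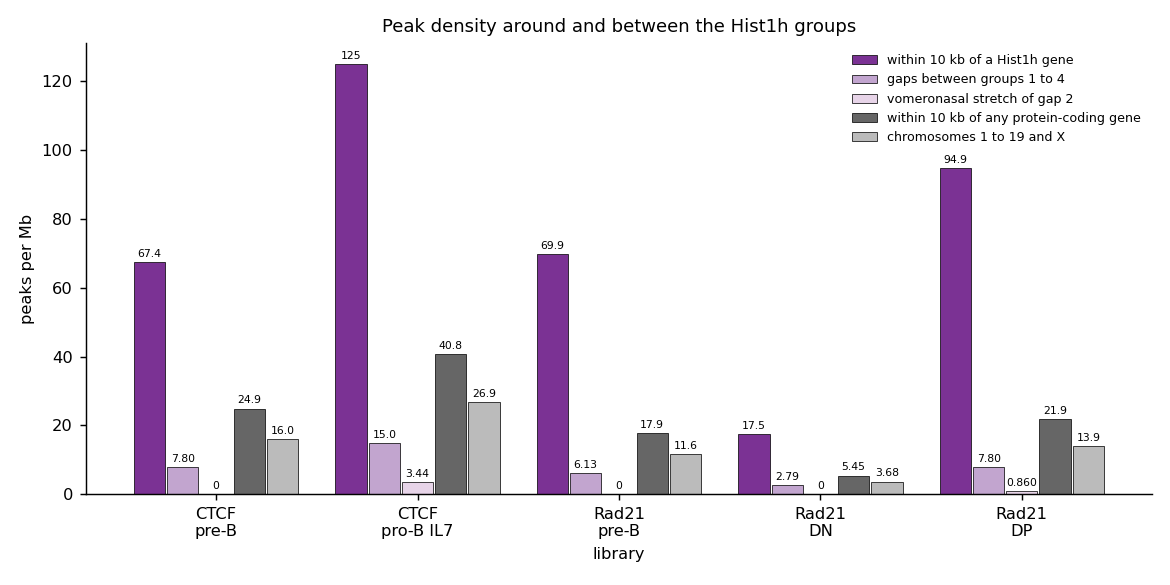
Peaks per Mb in each library for the Hist1h territory, the gaps between groups 1 to 4, the vomeronasal stretch of gap 2, sequence within 10 kb of any protein-coding gene and chromosomes 1 to 19 and X. In each library the Hist1h bar is the highest, from 17.5 for DN Rad21 to 125 for IL7-cultured pro-B CTCF, and the vomeronasal bar is at or near 0.

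Gap sites of high rank lay outside this stretch. Near Abt1, 134 bp from the gene, CTCF ranked at 92.9 and 95.4 and Rad21 at 77.8 in pre-B and 85.1 in DP cells, and a site 8430 bp from the gene ranked at 96.2, 98.5, 86.0 and 83.9. Called in all 5 libraries were a site 19289 bp from Abt1, a site 5934 bp from Pom121l2 in gap 1, and in gap 3 the site near Trim38 and one 5790 bp from Slc17a3, a member of a family of anion transporters. The site near Pom121l2 had CTCF ranks of 87.1 and 90.4 and a DN Rad21 rank of 58.9.

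A long inverted repeat began inside group 1 and ended beyond the 10 kb border on the right of the group. Its arms, chr13:21884832-21904278 and chr13:21923401-21942792, aligned over 19476 bp with 98.9% identity and stood 19122 bp apart. The left arm holds Hist1h2bq, Hist1h2ao and Hist1h4m, and the right arm their mirror copies Hist1h2br, Hist1h2ap and Hist1h4n. Reads with up to 3 places in the genome were kept by the authors, so a read from one arm could be counted on both. Of the 9 pairs of peaks at mirrored positions, with midpoints within 200 bp, 5 had the same score to the last digit. The mirrored CTCF peaks of pre-B cells both scored 1270.09, those of DP Rad21 both scored 650.09, and those of DN Rad21 both scored 135.89. At the same site the scores were unequal in the other lists, with 1718.99 and 1882.01 for CTCF in the IL7 list and 921.38 and 948.99 for pre-B Rad21. Scores recur within a list, and from 2 to 22 peaks of a list shared each of the 5 equal scores. Whether both copies of the site, inside group 1 and at its right border, were bound or 1 of them was not tested. Without the right arm, 13 of 53 promoters carried pre-B Rad21 and 21 of 53 carried CTCF in the IL7 list.

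Most Hist1h promoters held repeated sequence. Every stretch of 31 bases in each promoter was counted over the genome, and those found at more than 3 places could not have kept an exactly matching read of that length. Such words made up a median of 31.6% of a Hist1h promoter (range 0 to 63.4%) and of 0% of the 811 other protein-coding promoters of the chromosome. They were highest, at 63.4%, at Hist1h2ao and Hist1h2ap. Promoters with a peak in any library had a median of 27.5% and the 18 without a peak 33.5%. The read length was not given in the sources used here, longer reads would be lost less often, and the part of this loss in the promoter counts was not tested.

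Counts at histone genes of the other clusters are given for comparison, with no test. Of the 14 Hist2h, Hist3h and Hist4h genes on chromosomes 3, 6 and 11, 11 had a promoter peak of pre-B CTCF, 13 of IL7-cultured pro-B CTCF, 9 of pre-B Rad21, 14 of DP Rad21 and 1 of DN Rad21. Their pre-B CTCF ranks reached 86.4, at Hist3h2a and its neighbour Hist3h2bb-ps. The shares were 78.6% (interval 49.2 to 95.3%) for pre-B CTCF, 92.9% (66.1 to 99.8%) in the IL7 list and 64.3% (35.1 to 87.2%) for pre-B Rad21, whose interval overlaps that of the Hist1h promoters. For DP Rad21 the share was 100% (76.8 to 100%). All protein-coding promoters gave 18.1%, 27.8%, 14.4% and 27.0% in these lists. These genes also lie close together, and the 11 pre-B CTCF calls rested on 7 peaks. Among 15 genes of histone expression and its cell cycle control, pre-B CTCF was called at 3 promoters and CTCF in the IL7 list at 9, while Rad21 was called at 1 (pre-B), 0 (DN) and 6 (DP). As shares these were 20% against 18.1% of all promoters for pre-B CTCF, 60.0% against 27.8% for the IL7 list, 6.67% against 14.4% for pre-B Rad21 and 40.0% against 27.0% for DP Rad21. Lsm11, which encodes a subunit of the U7 particle that trims histone messages, was called in 4 lists with ranks of 98.9, 99.3, 77.6 and 87.4. Npat, an activator of histone transcription, had CTCF in IL7-cultured pro-B cells (rank 52.2) and Rad21 in DP thymocytes (16.3).

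Counted within 10 kb of the gene rather than at the promoter, 43 of the 56 members had a pre-B CTCF peak and 52 had one in the IL7 list, where 69.0% and 78.4% of all protein-coding genes did. Rad21 lay within 10 kb of 46 members in pre-B cells, 15 in DN thymocytes and 52 in DP thymocytes, where 60.2%, 30.2% and 62.4% of all genes did. Neighbouring members share peaks in this count, and Hist1h genes are shorter than most genes. The DN count ranged from 5 within 5 kb to 30 within 20 kb.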

How the data were processed

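Peak lists of 5 ChIP-seq libraries were used, and input libraries were not used here. As the methods and the submitters' notes give it, the authors mapped reads with Bowtie (0.12.9 in the notes, while the methods name a later release) to the mm9 build, left out duplicates and adapters, kept reads with up to 3 places and 2 mismatches, and called peaks with MACS 1.4.2 at a false discovery rate of at most 1%. The deposited files give each peak's position and score, which the authors' caller derived from its p-value against input. Score was used only to rank or filter within 1 list, since it grows with depth, and no reads or depths were at hand.

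Genes came from GENCODE vM1 on the same build. Overlap meant at least 1 bp. Members and gene lists were chosen with earlier results of these data known. Genes were named by the highest rank of a promoter peak, with the outer genes of each group and the genes nearest to border and gap sites. Python 3.11.15, scipy 1.17.1 and BLASTN 2.17.0+ were used, and the counting steps were tested on simulated data. Alternatives were scores of at least 100, equal-length lists (per antibody, or for CTCF with Rad21 the shorter of the pre-B lists), midpoints or 50% overlap, wider and narrower windows, other group limits and other mismatch limits. Coding starts and leaving out the right arm of the inverted repeat were added after seeing the data.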

Additional observations from a re-analysis of the deposited data

How the results depend on the processing

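No paired analysis was possible because each condition had 1 library and no test was run. Of 173 values under alternative settings 134 stayed within their limit (a count within 1.5 times, a share within its interval) and 39 moved; where they moved, the cause was not tested beyond the fewer peaks or wider windows of the setting itself. With scores of at least 100 the territory held 30 IL7-cultured pro-B CTCF, 18 pre-B Rad21 and 21 DP Rad21 peaks and the gaps 9 DP peaks. Promoters called fell to 9, 7 and 10 and members with pre-B Rad21 within 10 kb to 29, while 80.0% of IL7-cultured pro-B peaks were shared, and 83.3% of pre-B Rad21 peaks, 100% away from promoters, had CTCF. With equal-length lists the territory held 21, 8 and 8 peaks and the gaps 11, 6 and 4. Promoters called were 2, 1 and 1, members within 10 kb of Rad21 were 19 in pre-B and 19 in DP cells, Rad21 sites in all 3 were 66.7% and in DP only 0%, CTCF sharing was 77.8% of pre-B and 100% of IL7-cultured pro-B peaks, and 33.3% of the latter held the consensus. A new group only after 200 kb left 4, 15, 3, 1 and 9 peaks in the gaps. A promoter of 1000 bp on either side gave 11 with pre-B CTCF. DN Rad21 lay within 20 kb of 30 members and within 5 kb of 5. The consensus share was 11.1% and 6.00% with at most 1 mismatch and 85.2% and 52.0% with 3. Counting by midpoint or 50% overlap, from coding starts, or without the right arm moved no value past its limit. The unknown depth limits what a missing peak says, most of all in the DN list.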
